A study of Mus musculus with 9 samples.

Results

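Testes labelled Gm1142 knockout (Gm1142-/-) were compared with testes labelled wild type (WT), in 3 libraries each, all from mice on postnatal day 7. The 6 libraries were taken by their titles from the 9 of the series, and the 3 others, labelled as lacking both Gm1142 and Gm4779, served only in the estimate of the spread between replicates. The measurement was sequencing of RNA captured on oligo(dT) beads, summarised as read counts for 56691 genes, of which 17251 had enough counts to be tested. The labels give the tissue, the age and the genotype but no strain, litter, mutant line or design of the allele, and nothing states that the replicates were separate animals, so each p-value reflects how much these particular samples vary, and part of that variation may be technical. RNA of testis tissue was sequenced in bulk, so fewer cells of a type and less RNA per cell cannot be told apart.

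In the mouse testis of this age, spermatogonia and still dividing immature Sertoli cells fill cords that peritubular myoid cells wrap, and Leydig cells, blood vessels, macrophages and fibroblasts lie between the cords. Many of the genes described here belong to machinery that every cell type uses. The proteasome degrades proteins tagged with ubiquitin, autophagy delivers cytoplasm to lysosomes, nuclear pores pass RNA and protein between nucleus and cytoplasm, and chaperones of the endoplasmic reticulum fold secreted and membrane proteins. Zinc-finger proteins of the Zfp series bind DNA, and many of them recruit repressors of transcription.

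Total gene counts were 4514237 to 5091624 in WT and 4597447 to 5243756 in the libraries labelled Gm1142 knockout, which are called KO-labelled below because the targeted gene was not lower in them. Gm1142, listed under the symbol 8030474K03Rik on the X chromosome, stood at 10.7, 9.86 and 8.83 CPM in WT and 12.6, 11.8 and 10.7 CPM in the KO-labelled libraries, with the replicates in order. CPM here is the read count divided by the scaled total of the library, times 1000000. On the log2 scale the difference was 0.25 (SE 0.30, edgeR adjusted p = 0.624), and no KO-labelled value was under the mean of WT. The other gene that the series targets, Gm4779, stood at 8.04, 9.46 and 11.4 CPM in WT and 17.1, 15.6 and 12.6 CPM in the KO-labelled libraries (0.65, SE 0.30, edgeR adjusted p = 0.146). In what follows, replicates 1 to 3 are the KO-labelled libraries, and WT 1 to WT 3 the others. Counts over a whole gene do not show which part of it an allele lacks. Defining markers of the tissue were present in every library. The Sertoli-cell hormone gene Amh stood at 59.4 to 76.8 CPM and the germ-cell RNA helicase gene Ddx4 at 52.2 to 69.8 CPM, and the groups overlapped for both. These genes show that the cell types were present, not that their markers were unchanged. Of 27 tested Sertoli markers 9 fell and 1 rose, and of 20 general germ-cell genes 1 (Dazl) fell and 2 rose, as described below.

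In the test of all 17251 genes, 3196 (18.5%) changed at an edgeR quasi-likelihood adjusted p under 0.05. Of these, 1751 rose (10.2%) and 1445 fell (8.38%), and 1092 (6.33%) did so at least 2-fold, 546 in each direction. The 3 KO-labelled libraries did not overlap the 3 WT libraries for 6192 genes (35.9%), called or not. The median log2 fold change over all tested genes was -0.01.

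Some of the most changed abundant genes are given here, taken only from called genes whose groups did not overlap. The gap between the groups was thus a condition of the choice. A larger fitted change, of mt-Nd3 (6.66 on the log2 scale, from 0, 0.788 and 0.861 CPM in WT to 62.0, 53.4 and 54.8 CPM in the KO-labelled libraries), is uncertain, since reads of this mitochondrial gene can be shared with copies in the nuclear genome. Nck2, an adaptor that links receptor kinases to the actin cytoskeleton, had 18.6, 14.4 and 14.9 CPM in WT and 123, 166 and 135 CPM in the KO-labelled libraries (3.14, SE 0.18, edgeR adjusted p = 1.83e-10, the fold change on the log2 scale as in all parentheses that follow). Sinhcaf, a subunit of the Sin3 histone deacetylase complex, had 54.2, 59.9 and 57.1 CPM in WT and 202, 229 and 206 CPM in the KO-labelled libraries (1.89, SE 0.13). For both genes even the lowest KO-labelled library was several times the highest WT library. Faim, an inhibitor of apoptosis, rose by 1.88, Malsu1, an assembly factor of the mitochondrial ribosome, by 1.87, and Ccdc15, which encodes a coiled-coil protein, by 2.23 on the log2 scale. Large decreases were those of Nr4a1, a nuclear receptor gene induced early by many signals, at 165, 139.6 and 166 CPM in WT and 27.0, 23.01 and 25.1 CPM in the KO-labelled libraries (-2.64, SE 0.19), and Cyp17a1, an enzyme of androgen synthesis in Leydig cells, at 165, 156 and 46.3 CPM in WT and 13.8, 39.1 and 7.67 CPM in the KO-labelled libraries (-2.64, SE 0.54). For Nr4a1 the groups were far apart, while for Cyp17a1 WT 3 lay only just above replicate 2. Of 15 tested Leydig-cell markers 3 fell (Cyp17a1, Fdxr at -1.23 and Hsd3b1 at -0.67) and Akr1cl rose by 0.53, and their summed level was 2489 to 2718 CPM in WT and 2249 to 2539 CPM in the KO-labelled libraries. The part of Leydig cells in the change of Cyp17a1 was not tested. Zkscan3, a zinc-finger gene reported as a repressor of autophagy and lysosome genes, had 375, 353 and 365 CPM in WT and 80.6, 94.9 and 68.8 CPM in the KO-labelled libraries (-2.16, SE 0.13, edgeR adjusted p = 3.55e-10). Here replicate 2 was the KO-labelled library nearest to WT. Ifi27, a gene induced by interferon, had 136, 119.8 and 134 CPM in WT and 39.0, 38.9 and 47.1 CPM in the KO-labelled libraries (-1.64, SE 0.13). Nabp1, a single-stranded DNA binding protein of DNA repair, fell by 2.39, the zinc-finger genes Zkscan7 by 1.98 and Zbtb26 by 1.85, and Mavs, the adaptor of the RIG-I pathway of RNA sensing, by 1.75. All 17 of these calls held in all 6 fits that each left out 1 of the 6 libraries.

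**Figure D1:**
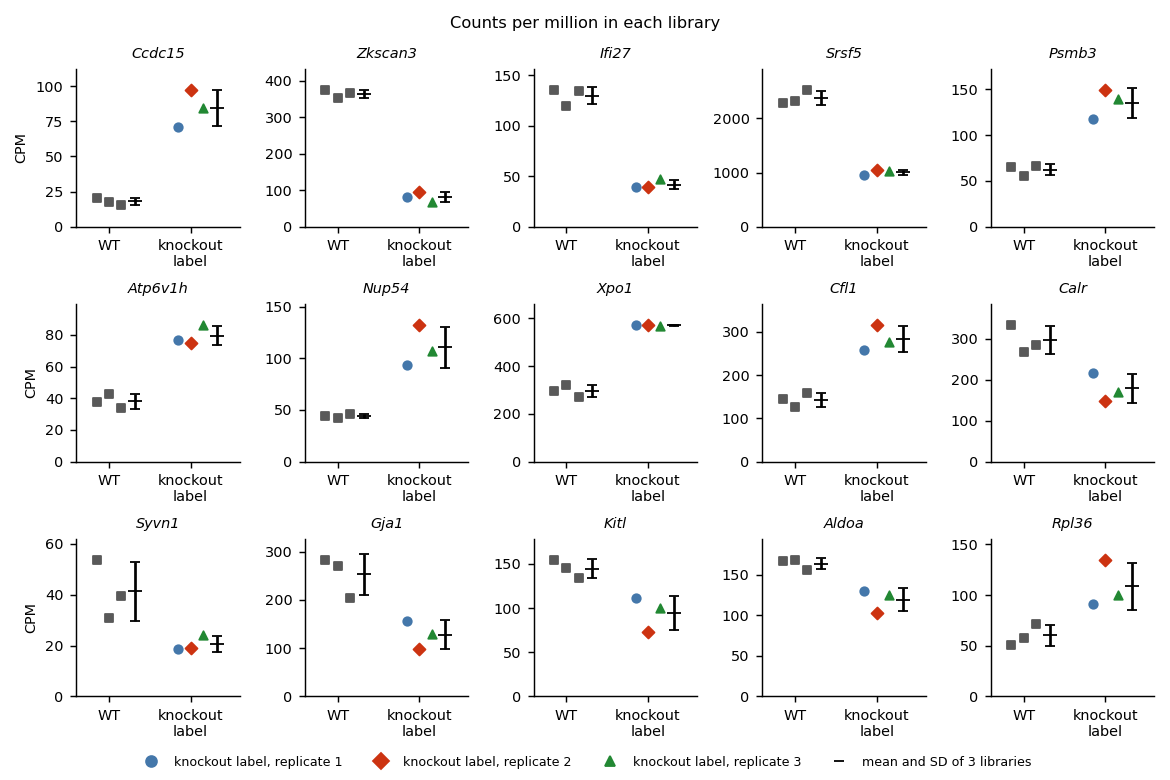
Scaled counts (CPM, linear axes from 0) of 15 genes in each WT library (grey squares) and each KO-labelled library (coloured by replicate), with the mean and SD of 3 libraries beside them. The genes were taken only from called genes whose groups do not overlap. Replicate 2 (red diamonds) is the KO-labelled value farthest from WT for Nup54, Cfl1, Gja1, Kitl, Aldoa and Rpl36 but not for Zkscan3, Srsf5 or Atp6v1h.

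Replicate 2 stood apart from the other KO-labelled libraries without changing the direction of any call. Over all tested genes the root-mean-square log2 difference was 0.566 between replicates 1 and 3, but 0.674 and 0.651 between replicate 2 and these, against 0.532 to 0.584 within WT and 0.765 to 0.891 between a WT and a KO-labelled library. A principal component analysis of all 9 libraries put replicate 2 farthest from WT on its leading axis (37.2% of the variance), at 67.5 where replicates 1 and 3 had 43.7 and 49.4 and WT -30.7 to -25.2. On the next axis (13.1%) it had 30.8, while replicates 1 and 3 had -16.2 and -24.8. Of the 1751 genes that rose, replicate 2 was the farthest from the WT mean for 1112 (63.5%), with a median log2 difference of 0.88 in it, 0.67 in replicate 1 and 0.74 in replicate 3. Of the 1445 that fell, it was the farthest for 552 (38.2%), with medians of -0.88, -0.85 and -0.85. Over all tested genes replicate 2 was the highest of the 3 for 41.7% and the lowest for 33.7%. Being farthest did not mean that a call depended on it. Without replicate 2, 1228 of the 1751 higher calls and 1052 of the 1445 lower calls were kept.

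Without replicate 2, 2496 of 17960 genes changed (13.9%; 7.12% up, 1278 genes, and 6.78% down, 1218), and 2280 of the 3196 calls (71.3%) were kept. Of the other libraries, replicate 3 and the 3 WT libraries cost more calls and replicate 1 fewer. Leaving out another library kept 2591 calls without replicate 1, 2115 without replicate 3, and 1974, 2180 and 2179 without WT 1, WT 2 and WT 3, where 2037, 2285 and 2304 genes were called in all. A core of 1555 calls (881 higher and 674 lower) held in all 6 of these fits. No call changed sign in any of them. With replicate 2 and WT 1 left out together, a choice made after seeing these counts, 1644 genes were called, 817 higher and 827 lower.

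**Figure D2:**
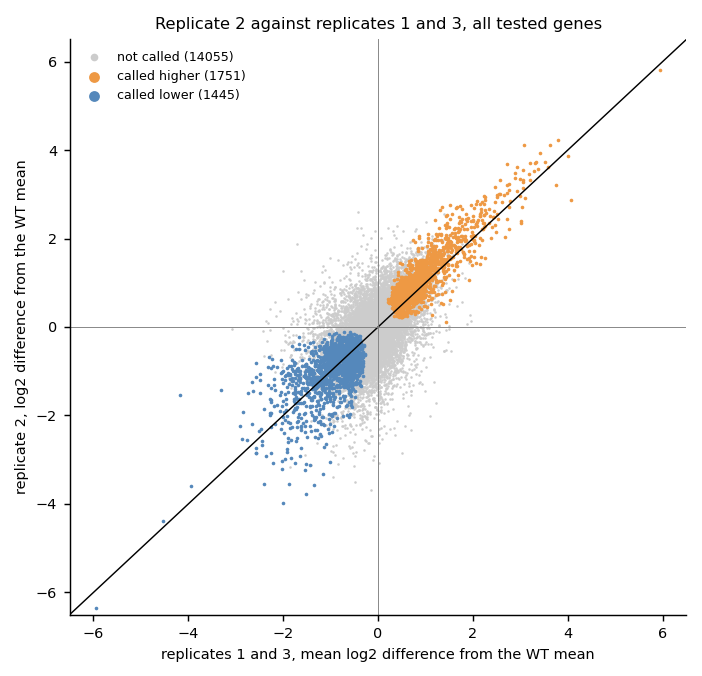
Each point is 1 of the 17251 tested genes, placed by its log2 difference from the WT mean in KO-labelled replicates 1 and 3 (mean of both, horizontal axis) and in replicate 2 (vertical axis), both on log2(CPM + 0.5), with the diagonal marking equal differences. Genes called higher (1751) lie mostly above the diagonal, so farther from WT in replicate 2, while genes called lower (1445) lie on both sides, and the axes share the WT mean.

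A difference in transcript length also set replicate 2 apart. The 16803 tested genes with a known length were divided by it into 5 groups of about equal size, and in these the median log2 difference of replicate 2 from the WT mean went from 0.21 for the shortest (up to 1652 bases) through 0.09, 0.03 and -0.04 to -0.18 for the longest (5001 bases and more). Over the same groups replicate 1 stayed between -0.03 and 0.03, replicate 3 between -0.03 and 0.06, and the 3 WT libraries, each against their own mean, between -0.04 and 0.04. Lists of short or long transcripts below are given with this in view, and its part in their values was not tested. Abundance mattered in all libraries. With the genes divided into 5 groups by mean CPM, 22.7% rose and 10.99% fell in the most abundant group, and 2.52% and 3.39% in the least abundant one. The lists are therefore set beside the share called among genes of the same abundance (higher before lower where both are given), which is the average of these shares over the groups its members fall in.

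**Figure D3:**
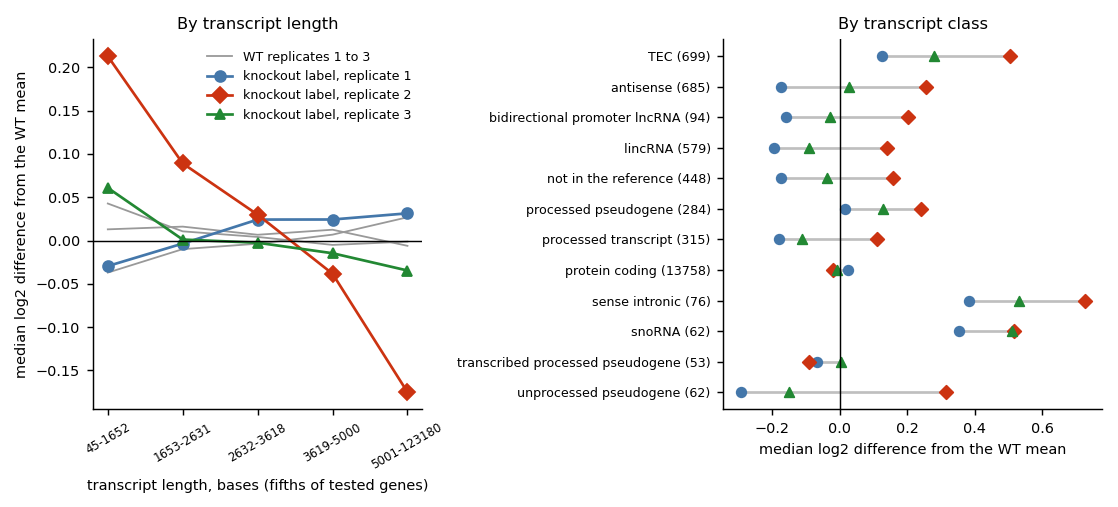
Median log2 difference from the WT mean, on log2(CPM + 0.5), by 5 groups of transcript length (left, with the 3 WT libraries as grey lines) and by transcript class with at least 50 tested genes (right, number of genes in brackets), for each KO-labelled library. Replicate 2 falls from 0.21 to -0.18 with length and is the highest of the 3 for most non-coding classes.

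In all, 83 gene lists of cell types and pathways were compared, and 61 of them had 20 or more tested members. For 14 of the 61 the share of members that rose was at least 2 times that over all genes, and for 8 the share that fell was. No member fell in 10 of the lists, and none rose in 2. The counts describe these lists, and no test of a list as a whole was made. Counts of 3 or fewer calls in a direction often went to 0 or 1 when a library was left out.

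**Figure D4:**
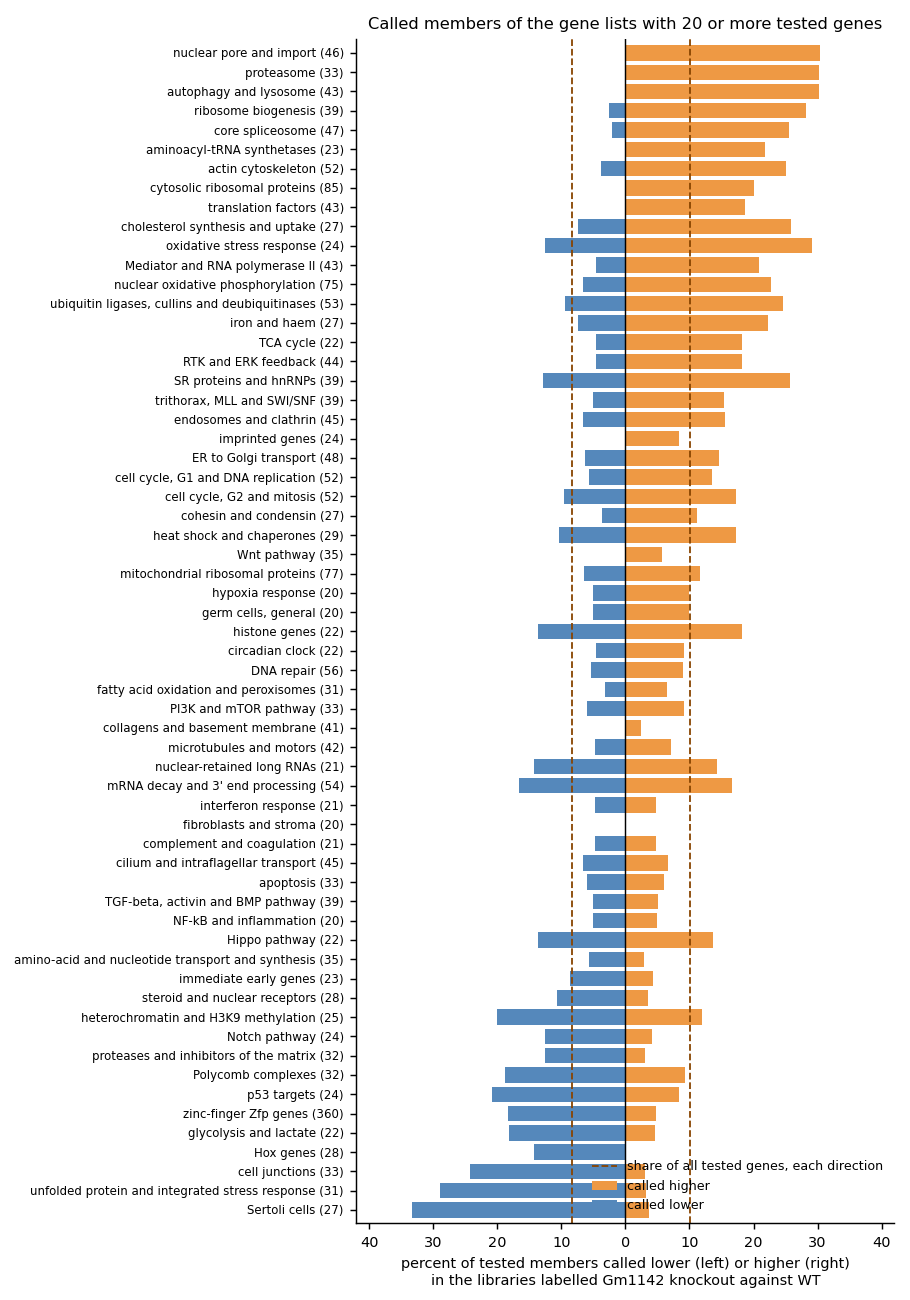
Percent of tested members called higher (orange, right) and lower (blue, left) for the 61 lists with 20 or more tested members (number in brackets), with dashed lines at the shares over all tested genes, 10.2% higher and 8.38% lower. Nuclear pore, proteasome and autophagy lists reach about 30% higher with none lower, and Sertoli, unfolded protein and cell junction lists reach 24.2% to 33.3% lower.

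Every called gene of the proteasome and of autophagy rose. Of 33 tested proteasome genes 10 rose and none fell (30.3% against 20.3% of genes of the same abundance), with a median log2 fold change of 0.29. Psmb3, a subunit of the proteasome core, had 64.7, 55.2 and 66.8 CPM in WT and 117, 149.6 and 139 CPM in the KO-labelled libraries (1.12, SE 0.14, edgeR adjusted p = 1.09e-05). Psmd13 (1.05, SE 0.14) and Psmd6 (0.92, SE 0.13), subunits of the regulatory cap, rose with it. For all 3 genes every KO-labelled value was above every WT value, and the calls held in all 6 fits. The medians of the list were 0.26, 0.33 and 0.24 in the 3 KO-labelled libraries and -0.04 to 0.05 in WT, so replicate 2 was the highest by a small margin. The count of genes that rose was 6 without replicate 2, 6 without replicate 3, 6 without WT 1, 5 without WT 2 and 6 without WT 3.

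Of 43 tested genes of autophagy and the lysosome, 13 rose and none fell (30.2% against 15.2% at the same abundance), with a median of 0.20. They include several steps of the pathway, with Atg16l1, which helps to attach the LC3 family to membranes, at 93.6, 90.1 and 94.3 CPM in WT and 164, 214 and 167 CPM in the KO-labelled libraries (0.97, SE 0.13, edgeR adjusted p = 3.24e-05). Atp6v1h, a subunit of the proton pump that acidifies lysosomes, had 37.3, 43.0 and 33.8 CPM in WT and 76.9, 75.2 and 86.5 CPM in the KO-labelled libraries (1.06, SE 0.15), and here replicate 2 was the lowest of the KO-labelled libraries. Map1lc3b, which encodes an LC3 protein, rose by 0.69. Among members chosen after their values were seen, Rb1cc1 and Atg101, both of the ULK1 complex that starts autophagy, rose by 0.82 and 1.41, and Becn1, of the lipid kinase complex that acts next, by 0.69. The list's medians were 0.29, 0.24 and 0.20, and the count of genes that rose was 11 without replicate 2 and 8 without WT 1. Zkscan3, reported as a repressor of such genes, fell, and a link between it and this list was not tested. Among 53 ubiquitin ligases, cullins and deubiquitinases, 13 rose and 5 fell (24.5% and 9.43% against 19.96% and 10.8% at the same abundance), led by the ligase gene Ubr3 (0.97, SE 0.12) and the conjugating-enzyme gene Ube2d3 (0.66, SE 0.11). The count of this list that fell was 2 without replicate 1, 3 without replicate 2, 1 without replicate 3, 1 without WT 1, 0 without WT 2 and 1 without WT 3.

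Called genes of transport through the nuclear envelope all rose. Of 46 tested genes of the nuclear pore and nuclear import and export, 14 rose and none fell (30.4% against 17.6% at the same abundance), with a median of 0.16. Nup54, of the central channel of the pore, had 43.8, 42.6 and 46.1 CPM in WT and 93.2, 133 and 107 CPM in the KO-labelled libraries (1.33, SE 0.15, edgeR adjusted p = 5.2e-06). Xpo1, the main exporter of proteins from the nucleus, had 293, 321 and 272 CPM in WT and 572, 573 and 568 CPM in the KO-labelled libraries (0.95, SE 0.12), and its 3 KO-labelled values were almost equal. Nup88, on the cytoplasmic face of the pore, rose by 0.98. The medians were 0.20, 0.14 and 0.15, with replicate 2 the lowest, but the count of genes that rose was 8 without replicate 2, 7 without WT 1, 9 without WT 2 and 9 without WT 3. Nup54, Xpo1 and Nup88 kept the call in every one of these fits.

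Genes of protein synthesis were less even across the KO-labelled libraries. Of 85 tested genes of cytosolic ribosomal proteins 17 rose and none fell (20% against 17.9% at the same abundance), with a median of 0.20. Rps18 had 101, 119 and 122 CPM in WT and 188, 254 and 216 CPM in the KO-labelled libraries (0.94, SE 0.14, edgeR adjusted p = 0.000113), and Rpl30 (0.83, SE 0.14) and Rpl36 (0.85, SE 0.17) rose with replicate 2 the highest in each. The list's medians were 0.12, 0.35 and 0.12 in the KO-labelled libraries and -0.04 to 0.06 in WT, so replicate 2 was apart from both other KO-labelled libraries. The members are short, with a median of 1059 bases against 3098 over all tested genes. The count of genes that rose was 9 without replicate 2, 10 without replicate 3, 7 without WT 1, 11 without WT 2 and 11 without WT 3, and many of these genes have pseudogene copies that can share their reads.

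In 2 other lists of proteins of the mitochondrion replicate 2 was again the highest. The 77 tested genes of mitochondrial ribosomal proteins (9 rose and 5 fell, 11.7% and 6.49% against 11.1% and 9.62% at the same abundance) had medians of -0.01, 0.36 and 0.12. The count that rose was 5 without replicate 2 and 5 without replicate 3, and the count that fell was 3 without replicate 1, 5 without replicate 2, 3 without replicate 3, 3 without WT 1, 3 without WT 2 and 3 without WT 3. For 75 oxidative phosphorylation genes of the nucleus, with 17 higher and 5 lower (22.7% and 6.67% against 12.8% and 9.76%), the medians were 0.19, 0.48 and 0.27. Genes that rose numbered 12 without replicate 2, and the count that fell was 1 without replicate 1, 5 without replicate 2, 1 without replicate 3, 1 without WT 1, 1 without WT 2 and 1 without WT 3. Median transcript lengths of the lists were 1884 and 1001 bases. Within the first list members moved both ways, with Mrpl13 at 0.93 and Mrps15 at -1.32, both called in every fit that left out a library. Mrps15 had 53.4, 48.3 and 48.7 CPM in WT and 19.6, 21.2 and 19.6 CPM in the KO-labelled libraries.

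Genes that build ribosomes had similar medians in all 3 KO-labelled libraries. Of 39 tested genes of ribosome biogenesis 11 rose and 1 fell (28.2% higher against 16.5%), with medians of 0.29, 0.36 and 0.23, and the count of genes that rose was 7 without replicate 2 and 7 without WT 1. Utp4, which acts on the precursor of the small ribosomal subunit, had 48.2, 53.02 and 51.5 CPM in WT and 101, 124 and 104 CPM in the KO-labelled libraries (1.10, SE 0.13, edgeR adjusted p = 8.1e-06). Polr1b, a core subunit of RNA polymerase I, rose by 0.84. Of 43 translation factors 8 rose and none fell (18.6% against 20.1%, so no more than at the same abundance), among them Eif6 (1.16, SE 0.15), which keeps the large subunit from joining too early. The count was 5 without replicate 1, 6 without replicate 2 and 4 without WT 3. Of 23 aminoacyl-tRNA synthetase genes 5 rose and none fell (21.7% and 0% against 16.2% and 10.6%), led by Eprs (0.81, SE 0.11) and Aimp1 (1.23, SE 0.18), and the count was 3 without replicate 2 and 3 without WT 1.

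Splicing genes held strong calls in both directions. Of 47 tested genes of the core spliceosome 12 rose and 1 fell (25.5% higher against 17.8% at the same abundance), with medians of 0.14, 0.19 and 0.14. Snrpd3, of the Sm ring of the snRNPs, had 43.1, 39.4 and 42.2 CPM in WT and 104, 129.6 and 109 CPM in the KO-labelled libraries (1.45, SE 0.17, edgeR adjusted p = 5.16e-06), and the helicase gene Dhx15 and Snrpb2 of the U2 snRNP rose by 0.93 and 1.09. The count of genes that rose was 10 without replicate 2. Among 39 genes of SR proteins and hnRNPs, which choose splice sites, 10 rose and 5 fell (25.6% and 12.8% against 22.4% and 10.97%). Srsf5 had 2292, 2322 and 2527 CPM in WT and 945, 1038 and 1028 CPM in the KO-labelled libraries (-1.25, SE 0.10, edgeR adjusted p = 4.46e-08). Srsf6 (-1.38, SE 0.10) and Clk4 (-1.10, SE 0.12), a kinase of SR proteins, fell too, and every KO-labelled library lay far below every WT library. Ptbp2 (0.88, SE 0.12), Hnrnph3 (0.81, SE 0.11) and Hnrnpr (0.71, SE 0.13) rose. Each of these 6 calls held in all 6 fits, and the medians of the SR and hnRNP list were 0.12, 0.03 and 0.04.

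Among the genes of transcription, 9 of 43 Mediator and RNA polymerase II genes rose and 2 fell (20.9% higher against 13.7%), with medians of 0.20, 0.26 and 0.17. Med17, of the Mediator head, had 40.6, 36.3 and 32.7 CPM in WT and 61.0, 55.0 and 72.9 CPM in the KO-labelled libraries (0.78, SE 0.16), and the count of genes that rose was 8 without replicate 2. Of 54 genes of mRNA decay and 3' end processing 9 rose and 9 fell (16.7% and 16.7% against 18.8% and 10.7% at the same abundance). The count that rose was 6 without replicate 2 and 5 without WT 1, and the count that fell was 8 without replicate 2, 5 without replicate 3 and 5 without WT 3. The deadenylase subunit Cnot6 rose by 0.92 and its partner Cnot7 fell by 0.63, and in the complex that cuts the 3' end Cpsf1 rose by 0.67 and Cpsf2 fell by 0.81.

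The main chaperones of the endoplasmic reticulum lumen fell. Of 31 tested genes of the unfolded protein and integrated stress response 9 fell and 1 rose (29.0% lower against 9.96% at the same abundance), with a median of -0.21. The count of genes that fell was 8 without replicate 2, and 7 of the 9 held in all 6 fits that left out a library. Of the 8 genes that fell and had a promoter in the reference table, 4 carry the endoplasmic reticulum stress element, spelled CCAAT, then 9 bases of any kind, then CCACG, in the 250 bases before their start. This element is known to bind NF-Y and ATF6, the sensor that drives chaperone genes when unfolded proteins build up. The promoters of these 4 genes are printed here as a description only. They come from RefSeq on GRCm38.p6, whereas the deposited counts were made on mm39, so the positions describe the reference only. Each is written 5′ to 3′ on the strand of its gene and ends at the base before the start, with each match to the element, on either strand, in capitals.
Hspa5, chr2:34771840-34772089, plus strand: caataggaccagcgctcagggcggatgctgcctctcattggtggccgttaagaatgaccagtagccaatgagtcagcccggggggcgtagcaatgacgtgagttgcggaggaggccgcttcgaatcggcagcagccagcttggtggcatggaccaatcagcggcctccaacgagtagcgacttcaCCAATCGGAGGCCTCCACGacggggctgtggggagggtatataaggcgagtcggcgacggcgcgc
Hsp90b1, chr10:86705445-86705694, minus strand: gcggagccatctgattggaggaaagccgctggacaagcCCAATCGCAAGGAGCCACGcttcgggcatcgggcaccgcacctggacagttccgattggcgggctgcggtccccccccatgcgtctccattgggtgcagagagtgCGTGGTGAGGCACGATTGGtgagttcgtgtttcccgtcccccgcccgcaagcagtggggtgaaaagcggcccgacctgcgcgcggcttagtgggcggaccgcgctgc
Calr, chr8:84846932-84847181, minus strand: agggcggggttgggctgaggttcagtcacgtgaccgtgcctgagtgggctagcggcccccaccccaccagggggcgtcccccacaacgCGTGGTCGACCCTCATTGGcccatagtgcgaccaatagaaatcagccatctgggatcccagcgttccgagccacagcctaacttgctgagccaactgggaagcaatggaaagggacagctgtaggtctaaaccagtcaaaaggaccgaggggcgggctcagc
Syvn1, chr19:6046326-6046575, plus strand: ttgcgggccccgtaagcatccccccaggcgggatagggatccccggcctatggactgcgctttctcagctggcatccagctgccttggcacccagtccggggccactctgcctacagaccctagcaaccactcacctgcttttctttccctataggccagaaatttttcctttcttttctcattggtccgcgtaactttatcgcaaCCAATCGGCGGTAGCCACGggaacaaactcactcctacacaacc

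The element was found in 35 of 27025 promoters of the same length (0.130%), in 21 of 11580 belonging to tested genes (0.181%) and in 8 of the 28 list members with a promoter (28.6%). Of the 8 list members that hold it, 4 fell, and Canx, Pdia6, Dnajc3 and Creld2 were not called. Among members with a promoter it was in 4 of the 8 that fell and in 4 of the 19 not called. That difference was not tested. The list gathers genes of the response in which this element is known to act, so its share there is not independent evidence. A match is a description of these letters, not a site. Hspa5, which encodes the chief chaperone of the lumen (BiP), was added after its values were seen and had 219, 225 and 195 CPM in WT and 167, 79.8 and 124 CPM in the KO-labelled libraries (-0.78, SE 0.20, edgeR adjusted p = 0.0104). Hsp90b1, another lumenal chaperone, had 373, 358 and 406 CPM in WT and 283, 211 and 244 CPM in the KO-labelled libraries (-0.62, SE 0.13, edgeR adjusted p = 0.00197). The calcium-binding chaperone gene Calr had 334, 268 and 285 CPM in WT and 216, 149 and 170.4 CPM in the KO-labelled libraries (-0.73, SE 0.15, edgeR adjusted p = 0.00173). For these 3 genes replicate 2 was the lowest of the 6 libraries and the groups did not overlap. Syvn1, the ubiquitin ligase that disposes of misfolded proteins, had 53.8, 30.9 and 39.4 CPM in WT and 18.5, 19.2 and 24.1 CPM in the KO-labelled libraries (-1.01, SE 0.20, edgeR adjusted p = 0.00148), and here WT 1 was high and replicate 2 was not extreme. Without replicate 2 the adjusted p was 0.0355 for Hspa5, 0.00653 for Hsp90b1, 0.00613 for Calr and 0.00486 for Syvn1, all still under 0.05.

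Other members of the list were less uniform. Herpud1 (-0.91, SE 0.20) and the cochaperone Dnajb11 (-0.63, SE 0.15), chosen after their values were seen, fell and kept the call in all 6 fits, while Sdf2l1 (-1.94) kept it in 4 of them and Atf6 itself (-0.93) in 2. Without replicate 2 their edgeR adjusted p was 0.0614 and 0.111. Dnajb9, which acts on BiP, was the 1 member that rose, at 48.8, 49.1 and 59.7 CPM in WT and 60.2, 97.7 and 68.2 CPM in the KO-labelled libraries, but its call (edgeR adjusted p = 0.0391) was lost without replicate 2, replicate 3, WT 1 or WT 2 (edgeR adjusted p = 0.0606 to 0.261). The transcription factor gene Xbp1 stood at 90.0, 72.1 and 76.0 CPM in WT and 73.6, 73.9 and 58.4 CPM in the KO-labelled libraries and was not called (-0.21, SE 0.15, edgeR adjusted p = 0.37). Atf4, the effector of the integrated stress response, was not called either (0.21, SE 0.15, edgeR adjusted p = 0.374), nor were its targets Asns (0.43) and Psat1 (0.18). Cytosolic heat-shock genes moved both ways, with 5 of 29 higher and 3 lower (17.2% and 10.3% against 18.1% and 10.2%), and the count that rose was 5 without replicate 2, 3 without WT 2 and 3 without WT 3. The chaperonin genes Tcp1 and Cct4 rose by 0.55 and 0.49, Hsph1 fell by 1.02, and Hspa8 fell by 0.53, a call lost without replicate 2, WT 1 or WT 3 (edgeR adjusted p = 0.0728 to 0.08).

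The zinc-finger genes of the Zfp series formed the largest list, and most of their calls were lower. Of 360 tested, 66 fell and 17 rose (18.3% lower against 8.22%, and 4.72% higher against 8.74%, of genes of the same abundance), with a median of -0.35. The medians were -0.21, -0.45 and -0.28 in the KO-labelled libraries, all below the WT libraries (-0.04 to 0.06), and replicate 2 was again the lowest. The count of genes that fell was 55 without replicate 2 and 38 without WT 1, and 31 held in all 6 fits. Genes that rose numbered 11 without replicate 2, 10 without replicate 3, 11 without WT 1 and 9 without WT 3. Zfp275 had 98.2, 107 and 82.3 CPM in WT and 39.6, 33.0 and 42.4 CPM in the KO-labelled libraries (-1.32, SE 0.15, edgeR adjusted p = 5.91e-06). Zfp60 (-1.33, SE 0.17) and Zfp61 (-1.26, SE 0.18), 2 other members, fell by similar amounts. Against the trend, Zfp951 had 24.1, 19.12 and 20.7 CPM in WT and 53.8, 82.3 and 73.3 CPM in the KO-labelled libraries (1.71, SE 0.19), and Zfp369 and Zfp280d rose by 1.35 and 1.02. Members of this family resemble each other, and how reads that map to several places were counted is not given in the sources used here. Trim28, the corepressor that many of these proteins recruit, rose by 0.55. Setdb1, the histone methyltransferase of that complex, fell by 0.47, a call lost without WT 3 (edgeR adjusted p = 0.0662).

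Polycomb genes moved apart. Ezh2, the methyltransferase of Polycomb repressive complex 2, had 175, 174 and 180.2 CPM in WT and 42.5, 39.1 and 52.2 CPM in the KO-labelled libraries (-1.98, SE 0.13, edgeR adjusted p = 3.1e-09). Mtf2 and Eed of the same complex were higher, at 70.1, 75.9 and 59.4 CPM in WT and 109, 122 and 108 CPM in the KO-labelled libraries for Mtf2 (0.72, SE 0.13) and a log2 fold change of 0.47 for Eed, whose call was lost without replicate 2, WT 2 or WT 3 (edgeR adjusted p = 0.0651 to 0.0905). Of Polycomb repressive complex 1, the ubiquitin ligase Ring1 fell by 1.33 and the chromodomain gene Cbx8 by 0.96. In all, 6 of 32 fell and 3 rose (18.8% lower against 10.44% at the same abundance), and the count of genes that fell was 4 without replicate 2. Among genes of DNA methylation Tdg rose by 0.78 and Tet1 fell by 1.16, both in all 6 fits, while the call of Dnmt3a (-0.46) was lost without replicate 2, replicate 3, WT 1, WT 2 or WT 3 (edgeR adjusted p = 0.0753 to 0.203). Of 28 tested Hox genes 4 fell and none rose (0% and 14.3% against 5.97% and 7.11% at the same abundance). Hoxd3 (-0.78, SE 0.21) and Hoxc6 (-0.83, SE 0.23) kept the call without replicate 2 and Hoxa10 (-1.16) and Hoxd8 (-0.62) did not. Hoxd3 lost it without replicate 3 or WT 3 (edgeR adjusted p = 0.0665 to 0.0781), and Hoxc6 without replicate 3 or WT 3 (edgeR adjusted p = 0.0702 to 0.0747). Hoxa10 lost it without replicate 1, replicate 2, WT 2 or WT 3 (edgeR adjusted p = 0.0549 to 0.186), and Hoxd8 without replicate 2, WT 1 or WT 3 (edgeR adjusted p = 0.059 to 0.129).

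Most called genes of cell junctions fell. Of 33 tested 8 fell and 1 rose (24.2% lower against 9.01% at the same abundance), with a median of -0.20. Gja1, the gap junction gene (connexin 43) that couples Sertoli cells to each other and to germ cells, had 284, 271 and 204 CPM in WT and 157, 97.7 and 129.8 CPM in the KO-labelled libraries (-0.98, SE 0.19, edgeR adjusted p = 0.00134). Jam2, an adhesion molecule of tight junctions, had 119.6, 114 and 120.4 CPM in WT and 68.8, 60.3 and 77.8 CPM in the KO-labelled libraries (-0.77, SE 0.14, edgeR adjusted p = 0.000751), and Cgn, the tight junction scaffold cingulin, had 173, 152 and 165 CPM in WT and 101, 98.7 and 109.5 CPM in the KO-labelled libraries (-0.66, SE 0.12). These 3 held in all 6 fits, and no KO-labelled library reached a WT library. The list's medians were 0.05, -0.34 and -0.21, with replicate 1 not below WT, and the count of genes that fell was 5 without replicate 2, 4 without WT 1 and 4 without WT 3. Ocln, the tight junction gene occludin, chosen after its values were seen, fell by 0.56 and kept its call in 1 of the 6 fits (edgeR adjusted p = 0.102 without replicate 2). Sertoli markers, 9 of 27 lower and 1 higher, moved with these genes (33.3% lower against 10.2% at the same abundance). Their summed level was 2971 to 3334 CPM in WT and 2461 to 2777 CPM in the KO-labelled libraries. Of the 9 that fell, 6 held in all 6 fits, among them Sox9 (-1.47, SE 0.23), Espn (-0.91, SE 0.15) and Sox8. The part of the Sertoli markers in the junction result was not tested.

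Actin genes rose more often than they fell. Of 52, 13 rose and 2 fell (25.0% higher against 18.8%), and the count of genes that rose was 11 without replicate 2. Cfl1 (cofilin), which severs actin filaments, had 146, 126 and 158 CPM in WT and 257, 317 and 277 CPM in the KO-labelled libraries (0.98, SE 0.12, edgeR adjusted p = 1.48e-05), and Arpc1b, of the Arp2/3 complex that branches them, rose by 0.82. Nck2, with the largest change among the genes described at the start other than mt-Nd3, is a member of this list. The 2 genes that fell, Wasf1 (-0.77) and Vasp (-0.49), were less stable than these. Wasf1 lost its call without replicate 1, replicate 2, WT 1 or WT 2 (edgeR adjusted p = 0.0528 to 0.128), and Vasp without replicate 1, replicate 2, replicate 3, WT 1 or WT 3 (edgeR adjusted p = 0.0877 to 0.248).

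In membrane traffic, genes of one pathway moved in both directions. Rab11a, the GTPase of recycling endosomes, had 43.8, 54.4 and 54.5 CPM in WT and 129, 129.9 and 136 CPM in the KO-labelled libraries (1.37, SE 0.16, edgeR adjusted p = 5.26e-06), and Rab4b, which acts in fast recycling, had 21.4, 19.12 and 20.7 CPM in WT and 6.603, 6.14 and 8.10 CPM in the KO-labelled libraries (-1.55, SE 0.23, edgeR adjusted p = 9.32e-05). For both the 3 KO-labelled libraries lay close together and far from WT. Vps26a of retromer, which returns receptors from endosomes, rose by 0.95, and the sorting nexin gene Snx1 fell by 0.85. Of 45 endosome genes 7 rose and 3 fell, near the shares at the same abundance (17.0% and 10.7%).

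Signalling lists were mixed. Hedgehog signalling, by which Sertoli cells act on Leydig and myoid cells, had 3 of 18 genes higher and none lower (16.7% and 0% against 11.1% and 9.26% at the same abundance). Gli1, its transcription factor and target, had 124, 101 and 112 CPM in WT and 155, 174 and 157 CPM in the KO-labelled libraries (0.53, SE 0.14, edgeR adjusted p = 0.00905). It kept the call without replicate 2 and lost it without WT 2 (edgeR adjusted p = 0.0648). In the activin and BMP list 2 of 39 rose and 2 fell (5.13% and 5.13% against 12.1% and 9.36%). The activin receptor gene Acvr2a had 28.7, 18.9 and 21.1 CPM in WT and 45.8, 53.7 and 63.5 CPM in the KO-labelled libraries (1.24, SE 0.21, edgeR adjusted p = 0.0003) and its partner Acvr1b had 36.8, 30.4 and 32.1 CPM in WT and 22.7, 14.3 and 17.5 CPM in the KO-labelled libraries (-0.85, SE 0.21, edgeR adjusted p = 0.00616), and both held in all 6 fits. The BMP receptor gene Bmpr1a (-0.52) lost its call without replicate 2, replicate 3, WT 1 or WT 2 (edgeR adjusted p = 0.0591 to 0.173). In the Notch list 1 of 24 rose and 3 fell (4.17% and 12.5% against 10.9% and 9.26%), and none of the 4 calls held in all 6 fits. Hes1, the best known target of Notch in many tissues, had 21.2, 20.3 and 20.2 CPM in WT and 13.2, 10.99 and 11.1 CPM in the KO-labelled libraries (-0.80, SE 0.23, edgeR adjusted p = 0.0182) and lost its call without replicate 3 or WT 1 (edgeR adjusted p = 0.0622 to 0.0644).

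Of 44 receptor tyrosine kinase and ERK genes 8 rose and 2 fell (18.2% and 4.55% against 13.8% and 10.1% at the same abundance), and the count of genes that rose was 7 without replicate 2, 5 without replicate 3, 4 without WT 1 and 5 without WT 2. The receptor gene Fgfr1 had 117, 114 and 122 CPM in WT and 186, 190.5 and 185 CPM in the KO-labelled libraries (0.67, SE 0.12), a call that held in all 6 fits. Kitl, the ligand from Sertoli cells that spermatogonia need, had 155, 145 and 134 CPM in WT and 111, 72.6 and 99.9 CPM in the KO-labelled libraries (-0.61, SE 0.17, edgeR adjusted p = 0.0172). Replicate 2 was the lowest, and the call was lost without replicate 2, WT 1 or WT 2 (edgeR adjusted p = 0.0545 to 0.0802). In the PI3K and mTOR list 3 of 33 genes rose and 2 fell (9.09% and 6.06% against 14.96% and 10.36%), with a median of -0.11. Both shares were thus below those at the same abundance. The inhibitor gene Ddit4 fell by 0.93 and Tsc2 by 0.54, and Lamtor1, which anchors mTORC1 on lysosomes, rose by 0.86, each in all 6 fits. Lamtor3 and Lamtor5 rose too, but kept the call in only 2 and 1 of the 6 fits. For the clock genes, Per1 had 43.5, 42.4 and 37.7 CPM in WT and 88.6, 143 and 94.4 CPM in the KO-labelled libraries (1.39, SE 0.17, edgeR adjusted p = 9.96e-06) and Cry2 rose by 1.08, while Tef fell by 0.55, the 3 calls among 22 genes (9.09% and 4.55% against 11.5% and 9.34%). The hour of collection is not in the labels.

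Calls in the metabolic lists differed in how far they rested on single libraries. For glycolysis 4 of 22 genes fell and 1 rose (4.55% and 18.2% against 14.2% and 10.36% at the same abundance), and the count of genes that fell was 0 without replicate 2, 1 without replicate 3, 0 without WT 1, 2 without WT 2 and 2 without WT 3. Aldoa (aldolase) had 168, 169 and 156 CPM in WT and 129.5, 103 and 125 CPM in the KO-labelled libraries (-0.46, SE 0.14, edgeR adjusted p = 0.0219), so its groups were apart with replicate 2 the lowest, and its call was lost without replicate 2, WT 1 or WT 2 (edgeR adjusted p = 0.0784 to 0.0802). For cholesterol 7 of 27 rose and 2 fell (25.9% higher against 12.2%), and the count of genes that rose was 4 without replicate 2, 4 without WT 1 and 4 without WT 2. Insig1, which holds back the sterol sensor, rose by 1.09 and Srebf1 by 0.71, whereas the synthesis enzymes Hmgcs1 and Ebp fell by 0.73 and 1.07, each in all 6 fits. For the oxidative stress response 7 of 24 rose and 3 fell (29.2% and 12.5% against 15.02% and 10.2%). The count that rose was 6 without replicate 2 and 4 without WT 3, and the count that fell was 1 without replicate 2, 1 without replicate 3 and 1 without WT 1. Gclc and Gclm, which together make the precursor of glutathione, rose by 0.68 and 0.59 and kept the call in all 6 fits, while Nfe2l2 (NRF2), which is known to activate both, fell by 0.58, a call lost without replicate 2, replicate 3, WT 1 or WT 2 (edgeR adjusted p = 0.0688 to 0.103). Among p53 targets 5 of 24 fell and 2 rose (8.33% and 20.8% against 10.1% and 8.30%), and the count of genes that fell was 3 without replicate 2, 0 without replicate 3, 0 without WT 1, 1 without WT 2 and 3 without WT 3, and no call of this list held in all 6 fits. Of 33 apoptosis genes 2 rose and 2 fell (6.06% and 6.06% against 11.5% and 9.10% at the same abundance), with a median of -0.07. The pro-apoptotic Bcl2l11 (BIM) had 24.5, 14.6 and 20.2 CPM in WT and 60.01, 80.3 and 66.3 CPM in the KO-labelled libraries (1.80, SE 0.19, edgeR adjusted p = 2.27e-06) and Bok rose by 1.02, both in all 6 fits. The count of this list that fell was 1 without replicate 1 and 0 without replicate 2, replicate 3, WT 1, WT 2 or WT 3.

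Cell cycle genes showed no common direction. In the list of G2 and mitosis 9 of 52 rose and 5 fell (17.3% and 9.62% against 17.3% and 10.7% at the same abundance). Genes that rose numbered 7 without replicate 2 and 5 without WT 3, and the count that fell was 3 without replicate 1, 1 without replicate 2, 2 without WT 1, 2 without WT 2 and 3 without WT 3. Cdk1, whose kinase brings cells into mitosis, had 68.3, 60.9 and 64.0 CPM in WT and 140.4, 179 and 171 CPM in the KO-labelled libraries (1.34, SE 0.14), and Spc25 of the kinetochore rose by 1.28, while Nusap1 of the spindle fell by 0.90, all in all 6 fits. Tpx2, of the spindle too (-0.68), lost the call without replicate 2 or WT 2 (edgeR adjusted p = 0.0611 to 0.0701), and the checkpoint gene Bub1b (-0.65) without replicate 1, replicate 2, WT 1 or WT 3 (edgeR adjusted p = 0.0549 to 0.1). In the list of G1 and replication 7 of 52 rose and 3 fell (13.5% and 5.77% against 15.2% and 10.3%). The count that rose was 4 without replicate 2, 4 without replicate 3, 4 without WT 1, 4 without WT 2 and 4 without WT 3, and the count that fell was 6 without replicate 1 and 3 without replicate 2. Both directions held strong calls, with Cdc7, the kinase that fires replication origins, lower by 1.10 and the ligase gene Lig1 higher by 0.79.

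The lists of stromal and vascular cells gave almost no calls, but the KO-labelled libraries differed widely from each other there. None of 20 tested fibroblast genes and none of 18 endothelial genes was called, where 19.3% and 10.8%, and 7.92% and 8.25%, of genes of the same abundance rose and fell. The fibroblast medians were 0.30, -0.51 and -0.18 in replicates 1 to 3 and 0.10, -0.09 and 0.01 in the 3 WT libraries, and the endothelial medians 0.47, -0.46 and -0.04 and -0.12, -0.15 and 0.23. Replicate 1 was thus above WT, replicate 2 below it and replicate 3 nearer to it than both. Dcn, the fibroblast proteoglycan gene decorin, had 284, 272 and 307 CPM in WT and 369, 170.3 and 243 CPM in the KO-labelled libraries, and Cdh5, the endothelial cadherin gene, 35.8, 31.3 and 37.3 CPM in WT and 49.9, 16.4 and 33.0 CPM in the KO-labelled libraries. The summed level of the 20 fibroblast genes was 2736 to 3173 CPM in WT and 2078 to 3477 CPM in the KO-labelled libraries, and that of the endothelial genes 253 to 318 and 226 to 362 CPM. No gene of either list was at 0 counts in all 6 libraries. What moved these genes between libraries was not tested.

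Collagens and basement membrane genes, which these cells make, followed the same order. Of 41 tested 1 rose and none fell (2.44% and 0% against 19.6% and 10.8% at the same abundance), with medians of 0.37, -0.33 and 0.02, and replicate 2 was the lowest of the KO-labelled libraries for 39 of the 41 (95.1%), against 33.7% over all tested genes. These transcripts are long, with a median of 6457 bases. The fibril gene Col3a1 had 964, 835 and 1039.5 CPM in WT and 1293, 669 and 909.5 CPM in the KO-labelled libraries and was not called (edgeR adjusted p = 0.962). Without replicate 2, 4 genes of the list rose. Fn1 (fibronectin), called with and without it, had 160.4, 142 and 165 CPM in WT and 257, 198 and 232 CPM in the KO-labelled libraries (0.56, SE 0.12, edgeR adjusted p = 0.00319), and the 3 that were added were Col15a1, Lama5 and Agrn (edgeR adjusted p = 0.0419, 0.0437 and 0.0283 without replicate 2), chosen after their values were seen. By contrast, 3 proteases that trim the matrix, Adamts10, Adamts5 and Adamts2, fell by 0.88, 0.80 and 0.60 in all 6 fits, and Adamts5 had 253, 227 and 222 CPM in WT and 134, 152 and 117 CPM in the KO-labelled libraries.

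**Figure D5:**
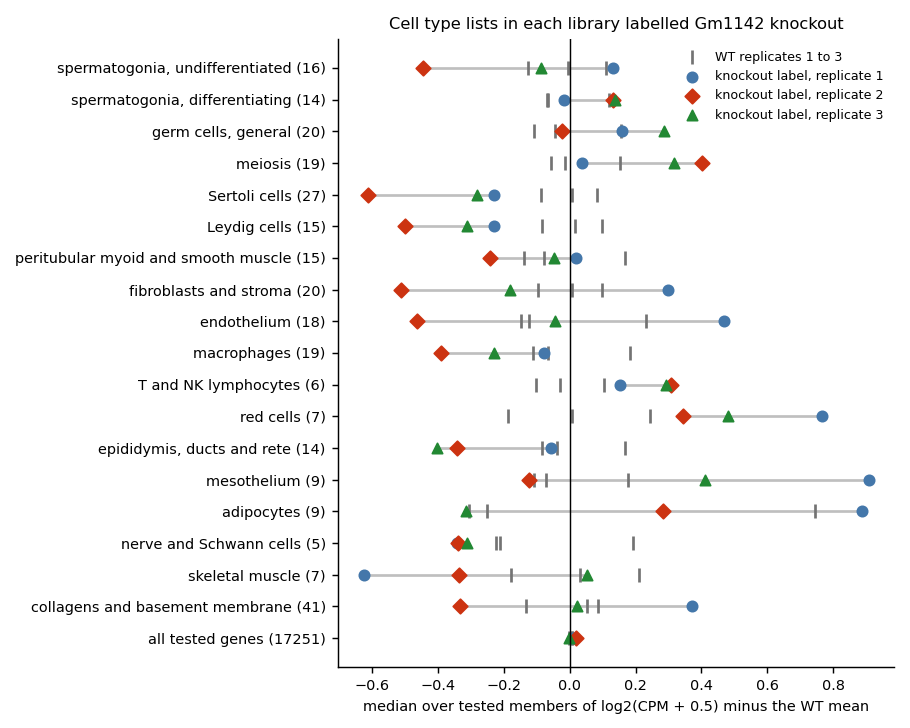
Median log2 difference from the WT mean, on log2(CPM + 0.5), over the tested members (number in brackets) of the cell type lists with 5 or more of them, of the collagen list and of all genes, in KO-labelled replicates 1 (circles), 2 (diamonds) and 3 (triangles) and in the WT libraries (grey ticks). For fibroblasts, endothelium and collagens replicate 1 lies above 0 (0.30, 0.47 and 0.37) and replicate 2 below it (-0.51, -0.46 and -0.33).

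Germ-cell lists held few calls. None of 16 tested genes of undifferentiated and none of 14 of differentiating spermatogonia was called (6.32% higher and 8.06% lower, and 9.45% and 8.89%, at the same abundance). The medians of the undifferentiated list were 0.13, -0.45 and -0.09, with replicate 2 the lowest, and those of the differentiating list -0.02, 0.13 and 0.14. Of 20 general germ-cell genes 2 rose and 1 fell (10% and 5% against 12.8% and 10.1%). Dazl, an RNA-binding protein that germ cells need to develop, had 179, 226 and 181 CPM in WT and 138, 103 and 131 CPM in the KO-labelled libraries (-0.66, SE 0.14, edgeR adjusted p = 0.00208) and kept the call in all 6 fits, while Uchl1 (0.49) and Dnd1 (0.67) rose. Uchl1 lost its call without replicate 3, WT 1, WT 2 or WT 3 (edgeR adjusted p = 0.0527 to 0.132), and Dnd1 without replicate 1, replicate 2, WT 1 or WT 2 (edgeR adjusted p = 0.0741 to 0.135). For meiosis 2 of 19 rose, and Sycp1, of the synaptonemal complex, had 29.9, 43.4 and 37.0 CPM in WT and 54.6, 59.3 and 55.8 CPM in the KO-labelled libraries (0.62, SE 0.17, edgeR adjusted p = 0.013). Its call was lost without WT 1 (edgeR adjusted p = 0.0971).

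The lists of other cell types are short, and their calls are named here one by one. Among 15 tested genes of myoid and smooth muscle cells Smtn rose (0.61, SE 0.15, edgeR adjusted p = 0.00612), and Des (-0.72) and Lmod1 (-0.97) fell. Des lost its call without replicate 2, replicate 3, WT 2 or WT 3 (edgeR adjusted p = 0.0702 to 0.164), and Lmod1 without replicate 2, replicate 3, WT 1, WT 2 or WT 3 (edgeR adjusted p = 0.0687 to 0.166). Of 19 macrophage genes 1 fell, the chemokine receptor gene Cx3cr1 (-1.48), and its call was lost without replicate 2, replicate 3, WT 1 or WT 2 (edgeR adjusted p = 0.0573 to 0.209). In the list of nerve and Schwann cells the tubulin gene Tubb3 fell (-1.03), and its call was lost without replicate 2, replicate 3 or WT 1 (edgeR adjusted p = 0.058 to 0.248). Of the 14 genes of epididymis, ducts and rete 2 fell, Hoxa10, given above, and Crisp1 (-0.86), whose call was lost without replicate 2, WT 2 or WT 3 (edgeR adjusted p = 0.056 to 0.0715). The mesothelial list had medians of 0.91, -0.12 and 0.41, high in replicate 1, and its 1 call was Wt1 (0.46, SE 0.11, edgeR adjusted p = 0.00584), also a Sertoli-cell gene.

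Genes of white blood cells were mostly too low to test. Only 6 of 20 lymphocyte genes of the T and NK lineages, 4 of 10 of B cells and 1 of 14 of granulocytes and mast cells could be tested, and Cd28, Pax5, Elane, Fcer1a, Ly6g and Mpo had 0 counts in all 6 libraries. Of those tested, 1 rose, Tigit, an inhibitory receptor of T and NK cells, with 0 counts in every WT library and 5.63, 4.09 and 6.82 CPM in the KO-labelled libraries (edgeR adjusted p = 0.000549), while the summed level of its list was 32.1 to 36.6 CPM in WT and 41.95 to 47.9 CPM in the KO-labelled libraries. Of 7 tested red cell genes Hba-a1 rose (0.72, SE 0.22, edgeR adjusted p = 0.0236), and its call was lost without replicate 1, WT 1 or WT 2 (edgeR adjusted p = 0.089 to 0.128).

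Some classes of transcript outside the protein-coding genes rose more often than the rest. By GENCODE M21 classes, 22 of 76 sense-intronic transcripts rose and 8 fell (28.9% and 10.5%), with medians of 0.38, 0.73 and 0.53 in the 3 KO-labelled libraries against -0.06 to 0.13 in WT. Of 699 transcripts of the class TEC, whose models still await experimental evidence, 154 rose and 63 fell (22.03% and 9.01%), with 0.12, 0.50 and 0.28 against -0.07 to 0.06. Of 62 small nucleolar RNA genes 8 rose and none fell (12.9% and 0%, against 10.2% and 8.38% over all tested genes, so near the share that rose). The count was 3 without replicate 2, 3 without replicate 3, 1 without WT 1, 4 without WT 2 and 5 without WT 3. Protein-coding genes stood at 10.1% higher and 8.33% lower. Antisense genes (49 of 685 higher and 51 lower, 7.15% and 7.45%) and long intergenic RNAs (32 of 579 higher and 55 lower, 5.53% and 9.50%) had medians of -0.17, 0.25 and 0.03, and of -0.20, 0.14 and -0.09, so replicate 2 was above the WT mean and replicate 1 below it. The strand setting of the counting is not given in the sources used here, so reads of intronic, antisense and small nucleolar genes cannot be told from those of the genes that contain them. Among long nuclear RNAs, Kcnq1ot1 (0.99, SE 0.18) and Snhg14 (0.81, SE 0.14) rose, and Tug1 (-0.64, SE 0.11) and Gas5 (-0.66, SE 0.13), a host of small nucleolar RNAs, fell, all in all 6 fits.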

How the data were processed

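Gene read counts were used as deposited by the authors, in 1 table for the whole series. They were made with cutadapt, featureCounts, STAR and Bowtie2 on the mm39 build, per the submitters' processing notes, which give no roles. Versions, strand setting, annotation release and the handling of reads that map to several places are not given in the sources used here. Symbols came from RefSeq and GENCODE M21 tables (52073 of 56691 genes), and 2 of the list entries were not matched.

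Genes were filtered with filterByExpr by group, scaled by TMM and tested with the edgeR 4.0.16 quasi-likelihood test (R 4.3.3) with all 9 libraries in 1 fit, with no block, leaving 6 residual degrees of freedom. Benjamini-Hochberg adjustment covered all 17251 tested genes, and a gene was called at an adjusted p under 0.05. The scaling factor of KO-labelled replicate 2 was the lowest, at 0.856. Per-library differences are log2(CPM + 0.5) minus the WT mean. In counts simulated from these means (16774 genes), 72 of 100 genes changed 2-fold and 99 of 100 changed 4-fold were recovered, with 9 false calls. The changed genes were drawn only from those above a minimum expected count.

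The genes compared and the lists were chosen with earlier results of these data known. Named genes are Gm1142 and Gm4779, and per list up to 3 called members in each direction by smallest p whose groups do not overlap. Also named are the 15 most changed abundant called genes in each direction, and defining genes of a list that were not called. The most changed genes had a mean of 20 CPM or more in the higher group, groups that do not overlap and a symbol not of a predicted gene. Same-numbered WT and KO-labelled libraries deviated together only weakly (r = 0.079, 0.0834 and 0.0368 across genes), so the numbers were not taken as pairs. Alternatives were other normalizations, filters and tools, a replicate block, fewer libraries in the fit and each library left out.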

Additional observations from a re-analysis of the deposited data

How the results depend on the processing

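The 3196 calls (1751 higher and 1445 lower) became 2037 to 3015 when each library was left out in turn, with 1114 to 1682 higher and 923 to 1333 lower. The lowest values came without WT 1 and the highest without KO-labelled replicate 1. Without KO-labelled replicate 2 and WT 1 together, a choice made after seeing the data, they were 1644 (817 and 827), with fewer libraries in the fit, and with a log2 fold change of at least 1 also required they were 1092 (546 and 546). With the replicate block the count was 2921 (1605 and 1316). The shared numbers are not a documented pairing, although each WT library correlated best with the KO-labelled library of its own number. DESeq2 called 3286, limma-voom 2994, and RLE size factors 3205. The 6 libraries alone gave 3428. Without the filter 3220 genes were called and under a stricter one 3208. Of 303 named genes that were called, 279 kept the call in every other fit with all 6 libraries, leaving aside the fold requirement, and 201 under every left-out library, and none changed sign. The share of calls that were higher was 54.8%, or 51.2% without replicate 2 and 49.7% without replicate 2 and WT 1. At this depth 72 of 100 simulated 2-fold changes were found, all placed in genes above a minimum expected count. Recovery among genes with fewer counts was not measured. A gene that was not called may therefore still differ.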

Other observations

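Several lists not described so far held strong calls, some in both directions. In ER to Golgi transport 7 of 48 tested genes rose and 3 fell (14.6% and 6.25% against 17.2% and 10.6% of genes of the same abundance), and the count that rose was 5 without replicate 2, 4 without WT 1 and 4 without WT 2. The coat genes Arcn1 and Copb2 of COPI vesicles rose by 0.88 and 0.65 on the log2 scale and Sec24c of COPII vesicles by 0.55, while the Golgi matrix gene Golgb1 fell by 0.90 and the SNARE gene Bet1 by 0.66. These 5 calls held in all 6 fits that each left out a library. Of 22 Hippo pathway genes 3 rose and 3 fell (13.6% and 13.6% against 15.2% and 10.42%), and the count that fell was 6 without replicate 1, 2 without replicate 2, 1 without replicate 3 and 1 without WT 3. The kinase gene Lats2 had 33.3, 30.6 and 29.3 CPM in WT and 49.7, 54.5 and 48.6 CPM in the KO-labelled libraries (0.71, SE 0.16), and Vgll4, a cofactor that competes with YAP, had 16.1, 18.7 and 23.04 CPM in WT and 7.57, 8.95 and 6.82 CPM in the KO-labelled libraries (-1.31, SE 0.26). Both were kept in all 6 fits. Of 35 Wnt pathway genes 2 rose and none fell (5.71% and 0% against 11.2% and 9.38%), and Wls, which carries Wnt proteins to the cell surface, had 96.7, 84.8 and 92.0 CPM in WT and 154, 200.4 and 152 CPM in the KO-labelled libraries (0.89, SE 0.13, edgeR adjusted p = 9.12e-05).

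Acaa1a, a thiolase of peroxisomal fatty acid oxidation, fell from 153, 162 and 171 CPM to 60.2, 66.2 and 58.2 CPM (-1.40, SE 0.13, edgeR adjusted p = 1.96e-07), and 2 other genes of its list of 31 rose. Of 24 imprinted genes 2 rose and none fell (8.33% and 0% against 14.9% and 9.22% at the same abundance). Nnat, which is expressed from the paternal allele, had 27.9, 31.7 and 30.4 CPM in WT and 41.95, 64.2 and 51.3 CPM in the KO-labelled libraries (0.80, SE 0.18, edgeR adjusted p = 0.00325), and Kcnq1ot1 was the other. Interferon and antigen presentation lists held few calls. Of 21 interferon response genes 1 rose and 1 (Ifi27) fell, and of 17 genes of the MHC and antigen presentation 1 rose.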
